A study of Mus musculus with 6 samples.

Results

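A set of 8 genes of 1 cytokine signalling axis, here the STAT5 and prolactin-type receptor axis, were examined in whole mouse uteri on day 4 of pregnancy. They are the transcription factor genes *Stat5a* and *Stat5b*, the receptor genes *Prlr*, *Ghr*, *Lepr* and *Epor*, and the target genes *Cish* and *Socs2*. The 8 members were picked by function, as STAT5 genes, receptors that signal through STAT5 and STAT5 targets, out of 56748 genes in each table. They were chosen by function when results of the same comparison were already known, so their values are given as a description, and each adjusted p below only places a gene within the whole table.

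RNA from 3 control and 3 *Gp130* ecKO uteri, all collected at 1600 h on day 4, was sequenced. All females were of the C57BL/6 background as labelled (C57BL/6J in the methods), over 8 weeks old by the study's methods, and mated with wildtype males. *Gp130* ecKO females had the genotype *Ltf*-iCre/+; *Gp130* flox/flox, in which Cre made from the *Ltf* locus deletes floxed *Gp130* (*Il6st*, the shared signalling receptor of the LIF and interleukin 6 family) in the uterine epithelium. The labels call the controls wildtype, whereas the methods allow floxed females without iCre as well. Whole uterus also holds stroma, muscle, vessels and immune cells, in which this Cre is not meant to act, although *Ltf* is also active in some neutrophils and macrophages.

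Cytokine receptors of the prolactin type have no enzyme activity of their own. When prolactin, growth hormone or erythropoietin binds, a bound JAK kinase, mainly JAK2, phosphorylates STAT5A and STAT5B, which pair, enter the nucleus and bind DNA at palindromic sites. Among the genes they switch on are *Cish* and *Socs2*, whose proteins damp the same receptors. The leptin receptor signals mainly through STAT3 and also through STAT5. In the pregnant mouse uterus the prolactin receptor is known from glands and, after implantation, from the decidua.

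The expected counts per uterus summed to between 13960748 and 25906443, lowest in control 3. Values below are CPM, counts relative to the TMM-scaled library size, and are compared between uteri for 1 gene, while the deposited TPM, which is per length, is used to compare genes. *Il6st* ran from 452 to 678 CPM in controls and from 349.8 to 388 in *Gp130* ecKO, with a log2 fold change of −0.68 (SE 0.21, adjusted p = 0.120 by edgeR's quasi-likelihood test). In a multidimensional scaling, control 2 lay at 0.03 on the first dimension, between controls 1 and 3 at 2.09 and 2.08 and the *Gp130* ecKO uteri at −1.47 to −1.32. Nothing in the labels says more of the replicates than that they are separate uteri.

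*Stat5b* rose in *Gp130* ecKO, and *Stat5a* showed the larger change but fell short of the call. Of the 8 members, 7 passed the filter on low counts and 1, *Stat5b*, was called at an adjusted p under 0.05 with more than 2-fold change, where 0.157 percent of the 16605 tested genes were called. In 3 of the 7 the control and *Gp130* ecKO values did not overlap, which held for 31.3 percent of all tested genes. These 3 were *Stat5a* and *Stat5b*, higher in *Gp130* ecKO, and *Socs2*, lower. The *Stat5b* call was lost when any uterus other than control 2 was left out (adjusted p 0.101 to 0.137 by the quasi-likelihood test). In those fits only 1 to 6 of all tested genes were called, and the log2 fold change of *Stat5b* was 1.217 to 1.259. Without control 2 both *Stat5a* and *Stat5b* were called, at adjusted p values of 0.0217 and 0.0174 by the same quasi-likelihood test of edgeR. That test then called 5.23 percent of 17142 tested genes. The *Stat5b* call was also lost with the legacy form of the quasi-likelihood test (adjusted p = 0.0593), which called 7 of all tested genes. With the replicate number as a block in the quasi-likelihood test it was lost too (adjusted p = 0.0818), where 6 of all tested genes were called. *Stat5a* and *Stat5b* were both called by edgeR's exact test, which called 7.54 percent of tested genes, and by DESeq2, which called 9.69 percent.

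**Figure D1:**
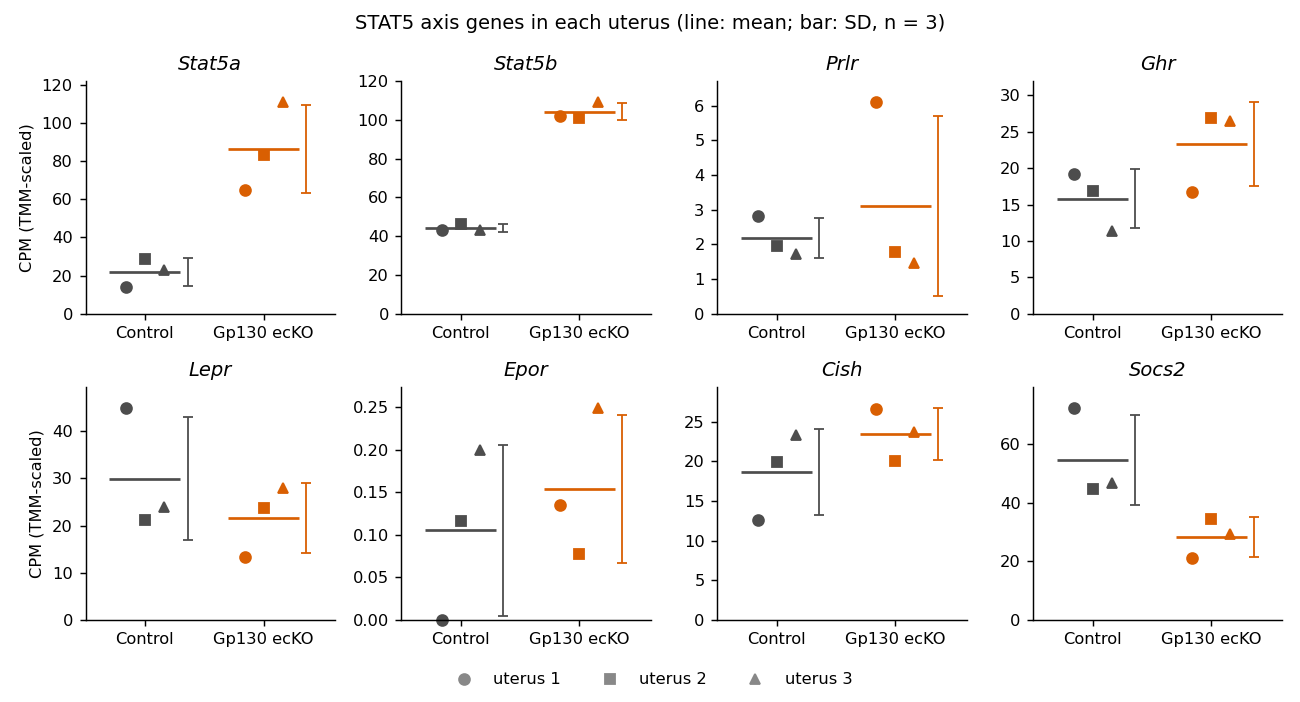
CPM of the 8 genes in each of 3 control (grey) and 3 *Gp130* ecKO (orange) uteri, with linear axes from 0 that differ between panels, the mean as a line and the SD as a bar. *Stat5a* and *Stat5b* lie higher in every *Gp130* ecKO uterus and *Socs2* lower, while the other 5 overlap between groups.

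*Stat5a* (ENSMUSG00000004043) and *Stat5b* (ENSMUSG00000020919) are neighbours on chromosome 11 (GRCm39), *Stat5a* on the plus strand at chr11:100750177-100776065 and *Stat5b* on the minus strand at chr11:100671556-100741589. They are transcribed away from each other across a gap of 8587 bases. Their canonical transcripts of 3958 and 5095 bases share an identical run of 324 bases, starting at base 904 of *Stat5a* and 940 of *Stat5b*. Its first 75 bases, the length of 1 read, are shown because a read from here cannot tell the 2 genes apart:
Stat5a and Stat5b shared run: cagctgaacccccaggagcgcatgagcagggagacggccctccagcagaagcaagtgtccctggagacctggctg
Over all annotated transcripts, 391 stretches of 75 bases were common to both genes, 4.31 percent of those of *Stat5a* and 4.39 percent of those of *Stat5b*. RSEM splits reads from such stretches between the genes by its model, so a small part of each count depends on that split.

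*Stat5a* was at 14.1, 28.7 and 23.1 CPM in controls 1, 2 and 3, and at 65.0, 83.5 and 111 CPM in *Gp130* ecKO 1, 2 and 3. The lowest *Gp130* ecKO uterus was thus above the highest control. The means were 21.98 ± 7.39 and 86.5 ± 23.2 CPM (SD, n = 3 each), a 3.94-fold difference. The log2 fold change was 1.98 (SE 0.31, 95% interval 1.24 to 2.71), with an adjusted p of 0.0548 by edgeR's quasi-likelihood test. This placed *Stat5a* at rank 96 of all tested genes by p.

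*Stat5b* was at 43.0, 46.4 and 43.3 CPM in the controls and at 102, 101 and 109 CPM in *Gp130* ecKO. Both groups were tight, with means of 44.2 ± 1.88 and 104 ± 4.37 CPM (SD, n = 3 each), and they lay far apart relative to this spread. The gene rose 2.35-fold, a log2 fold change of 1.23 (SE 0.14, 95% interval 0.90 to 1.57, adjusted p = 0.0429 by edgeR's quasi-likelihood test), and ranked 14 of all tested genes. With the counts of both *Stat5* genes summed, which removes the split of shared reads, the log2 fold change was 1.53 (SE 0.18, adjusted p = 0.0429 by the same test).

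The share of *Stat5a* in the *Stat5* mRNA was compared as well. Its share of the summed TPM of both genes was 31.8, 46.2 and 42.8 percent in the controls and 46.9, 54.3 and 59.1 percent in *Gp130* ecKO. The groups touched closely, with *Gp130* ecKO 1 just above control 2. The means were 40.3 ± 7.50 and 53.5 ± 6.13 percent (SD, n = 3 each), a difference of 13.2 percentage points, and the difference was 12.3 points by expected count. An exact two-sided permutation test gave p = 0.1 for both, the smallest it can give for 3 uteri against 3.

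The genes around the *Stat5* pair had log2 fold changes of both signs. Within 200 kb on either side lie 17 other protein-coding genes, of which 12 were tested and 5 had groups that did not overlap, against 31.3 percent of all tested genes. Their values ran from −0.82 to 0.80 with a median of 0.11, against −0.05 over all tested genes. The next gene beside *Stat5a*, *Stat3*, which encodes the STAT protein best known downstream of GP130, was at 468, 319.6 and 262 CPM in controls and 238, 197 and 162 CPM in *Gp130* ecKO. This was a log2 fold change of −0.82 (SE 0.26, adjusted p = 0.125 by edgeR's quasi-likelihood test), opposite in sign to that of *Stat5a*. The 2 genes overlap tail to tail by 142 exonic bases on opposite strands, and whether counting used strand is not given in the sources used here. *Cavin1*, which encodes a coat protein of caveolae, was also lower at −0.76 (SE 0.22), and *Atp6v0a1*, which encodes a proton pump subunit, was higher at 0.80 (SE 0.30) with overlapping groups.

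**Figure D2:**
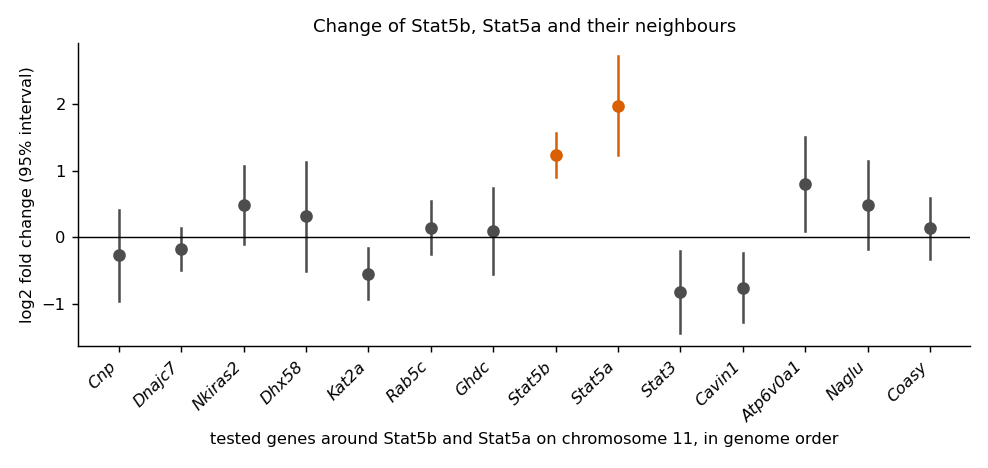
Log2 fold change of *Gp130* ecKO over control with its 95% interval for *Stat5b*, *Stat5a* (orange) and the 12 tested protein-coding genes within 200 kb, in genome order and not to scale. The *Stat5* genes stand at 1.23 and 1.98, and the 12 others lie between −0.82 and 0.80.

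Of the 4 receptor genes 3 were tested, and none of these was called by edgeR's quasi-likelihood test, its exact test or DESeq2 or had an unadjusted p under 0.05. *Prlr* (ENSMUSG00000005268, chr15:10177258-10349959, plus strand) encodes the prolactin receptor and was weakly expressed. It was at 2.83, 1.97 and 1.73 CPM in the controls and at 6.10, 1.77 and 1.45 CPM in *Gp130* ecKO. *Gp130* ecKO 1 was the highest of all 6 uteri, while *Gp130* ecKO 2 and 3 lay within or below the control range. Its log2 fold change was 0.49 (SE 0.60, 95% interval −0.91 to 1.89, adjusted p = 0.630 by edgeR's quasi-likelihood test). Without *Gp130* ecKO 1 it turned to −0.44.

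The 2 uteri highest in *Prlr* were also the 2 highest in the gland serine protease genes *Prss28* and *Prss29*. *Prss29* was at 523, 1.70 and 23.7 CPM in the controls and at 6546, 84.9 and 48.9 CPM in *Gp130* ecKO. *Spink1*, a trypsin inhibitor gene on the same list of gland markers, was also highest in these 2 uteri, at 327, 99.7 and 39.7 CPM in controls and 219.5, 17.3 and 11.2 CPM in *Gp130* ecKO. The other 3 gland markers had other orders. *Cxcl15*, a gland chemokine gene, was lowest in these same 2 uteri, at 18.2, 67.9 and 26.1 CPM in controls and 17.3, 22.3 and 93.8 CPM in *Gp130* ecKO. *Lif*, the cytokine that signals through GP130, was at 5.66, 11.3 and 29.5 CPM in controls and 44.9, 48.8 and 38.3 CPM in *Gp130* ecKO. *Foxa2*, a transcription factor of uterine glands, was at 16.3, 39.3 and 10.8 CPM in controls and 25.0, 11.5 and 43.4 CPM in *Gp130* ecKO. The summed level of 6 gland markers ran from 138 to 1068 CPM in controls and from 203 to 8729 CPM in *Gp130* ecKO. What part this plays in the *Prlr* values was not tested.

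*Ghr* (ENSMUSG00000055737, chr15:3347235-3613024, minus strand), the growth hormone receptor, was at 19.2, 16.9 and 11.3 CPM in controls and at 16.7, 26.8 and 26.5 CPM in *Gp130* ecKO. *Gp130* ecKO 2 and 3 were above every control, and *Gp130* ecKO 1 was inside the control range. This gave a log2 fold change of 0.56 (SE 0.29, 95% interval −0.11 to 1.23, adjusted p = 0.265 by edgeR's quasi-likelihood test).

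*Lepr* (ENSMUSG00000057722, chr4:101574601-101676237, plus strand), the leptin receptor, was at 44.9, 21.1 and 23.9 CPM in controls and at 13.3, 23.7 and 27.9 CPM in *Gp130* ecKO. The groups overlapped, with control 1 the highest and *Gp130* ecKO 1 the lowest. A log2 fold change of −0.47 was estimated (SE 0.38, 95% interval −1.35 to 0.41, adjusted p = 0.457 by edgeR's quasi-likelihood test). Leaving out control 1 brought it to −0.02. *Leprot*, a separate gene whose transcripts are known to start in the same region as those of *Lepr*, shared no stretch of 75 bases with it in the annotation used. It was at 123, 179 and 73.5 CPM in controls and at 230.3, 295 and 196 CPM in *Gp130* ecKO, apart between groups and opposite in sign to *Lepr* (log2 fold change 0.94, SE 0.33, adjusted p = 0.144 by the same test).

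*Epor* (ENSMUSG00000006235, chr9:21870192-21874879, minus strand), the erythropoietin receptor, was close to undetected. Its expected counts were 0, 3 and 3 in controls and 3, 2 and 6 in *Gp130* ecKO, so it did not pass the filter and no fold is given. A count of 0 allows up to 3 counts, and intervals and floors of this kind cover counting error only. Of its 75-base stretches, 35 percent are also found on the opposite strand in *Swsap1*, so even these few counts are uncertain as to source.

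The pair of target genes differed from each other. *Cish* (ENSMUSG00000032578, chr9:107173225-107179983, plus strand) encodes a SOCS family protein that STAT5 induces and that limits cytokine receptor signalling. It was at 12.7, 19.98 and 23.3 CPM in controls and at 26.6, 20.1 and 23.7 CPM in *Gp130* ecKO. The groups overlapped, and control 1 was the lowest uterus. The fitted log2 fold change was 0.33 (SE 0.27, 95% interval −0.29 to 0.96, adjusted p = 0.458 by edgeR's quasi-likelihood test). The interval includes both no change and nearly 2-fold more. Leaving out control 1 brought the log2 fold change of *Cish* to 0.15, and leaving out control 3 brought it to 0.52.

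In TPM, *Cish* did separate, at 8.43, 15.1 and 13.9 in controls and 24.1, 18.8 and 20 in *Gp130* ecKO. The effective length that RSEM used for the gene, which depends on the isoforms it assigned, was 1717 to 2318 bases in controls and 1463 to 1614 bases in *Gp130* ecKO, and TPM divides by it. Part of *Cish* is also covered by antisense noncoding genes, which hold 19 percent of its 75-base stretches on the opposite strand.

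*Socs2* (ENSMUSG00000020027, chr10:95219523-95253929, minus strand) encodes the SOCS protein best known for limiting growth hormone signalling. It was at 72.1, 44.5 and 46.6 CPM in controls and at 21.2, 34.5 and 29.2 CPM in *Gp130* ecKO, so its groups were apart. The means were 54.4 ± 15.4 and 28.3 ± 6.72 CPM (SD, n = 3 each), 1.92-fold lower in *Gp130* ecKO. On the log2 scale the difference was −0.94 (SE 0.27, 95% interval −1.57 to −0.32), with an adjusted p of 0.109 by edgeR's quasi-likelihood test, 0.0381 by its exact test and 0.0314 by DESeq2. It was not called by the quasi-likelihood test, where the adjusted p was above 0.05, nor by the other 2 tests, where the change was under 2-fold.

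**Figure D3:**
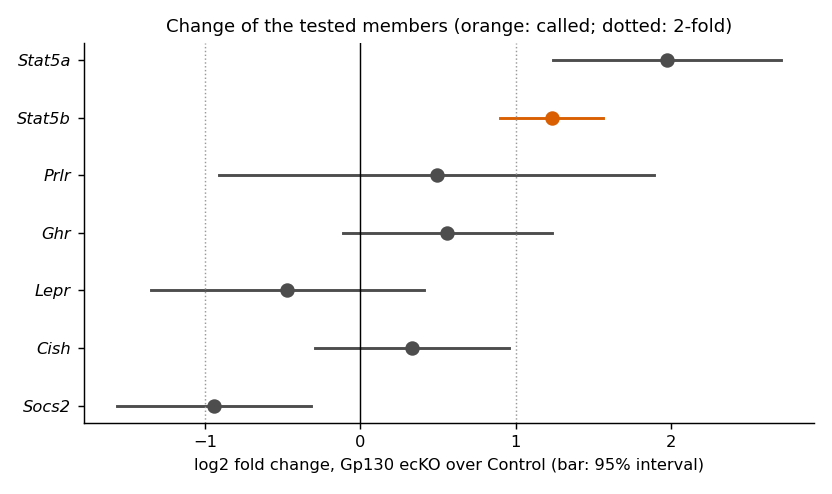
Log2 fold change of *Gp130* ecKO over control with its 95% interval for the 7 tested genes, where orange marks the called gene and dotted lines mark a 2-fold change. The intervals of *Stat5a*, *Stat5b* and *Socs2* exclude 0 and those of *Prlr*, *Ghr*, *Lepr* and *Cish* include it.

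RefSeq promoter windows, from 250 bases before to 50 after a gene's start on GRCm38.p6, were available for 7 of the 8 members in 13 windows. They were searched for the classic STAT5 palindrome TTCNNNGAA, where N is any base, which reads the same on both strands. It was found in 2 members, *Cish* and *Prlr*. *Cish* had 2 matches within its 1 window at chr9:107296409-107296708 on the plus strand, the first at the start site itself, base 251 of the window, and the next at base 262. The sequence is shown because *Cish* is the textbook target in this set, with the matches in capitals:
Cish promoter: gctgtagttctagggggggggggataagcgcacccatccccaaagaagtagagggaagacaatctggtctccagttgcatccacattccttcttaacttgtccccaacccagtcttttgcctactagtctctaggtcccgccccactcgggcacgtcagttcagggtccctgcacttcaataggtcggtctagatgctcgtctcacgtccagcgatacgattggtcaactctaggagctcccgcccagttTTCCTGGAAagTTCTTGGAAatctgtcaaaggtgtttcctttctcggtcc
The motif occurred in 8.30 percent of 32851 promoter windows of the same length, and 0.457 percent held 2 or more. *Prlr* had 1 match, TTCTAGGAA, at base 141 of the second of its windows, at chr15:10223656-10223955. A match is a description of the letters and not a bound site. *Socs2* was not analysed here for promoter sequence.

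Per length, *Socs2* was the most abundant member in controls at 34.8 ± 8.17 TPM (SD, n = 3), and *Stat5a* in *Gp130* ecKO at 33.8 ± 7.14 TPM. The control order after *Socs2* was *Cish* at 12.5, *Stat5b* at 11.6, *Stat5a* at 8.10, *Lepr* at 8.09, *Ghr* at 6.46, *Prlr* at 0.303 and *Epor* at 0.0833 TPM. The ranges of *Cish* and *Stat5b*, *Stat5a* and *Lepr*, and *Lepr* and *Ghr* overlapped in controls, so these neighbours did not differ beyond their spread.

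In *Gp130* ecKO the order after *Stat5a* was *Stat5b* at 28.9, *Cish* at 21.0, *Socs2* at 19.9, *Ghr* at 10.4, *Lepr* at 6.12, *Prlr* at 0.470 and *Epor* at 0.160 TPM. Here the ranges of *Stat5a* and *Stat5b*, *Cish* and *Socs2*, *Ghr* and *Lepr*, and *Prlr* and *Epor* overlapped. Within each uterus *Ghr* was nevertheless above *Lepr* in all 3 *Gp130* ecKO uteri, whereas each of the other pairs kept its order in 2. *Socs2* thus stood above both *Stat5* genes in every control and below both in every *Gp130* ecKO uterus. *Prlr* was the weakest tested member in both groups.

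**Figure D4:**
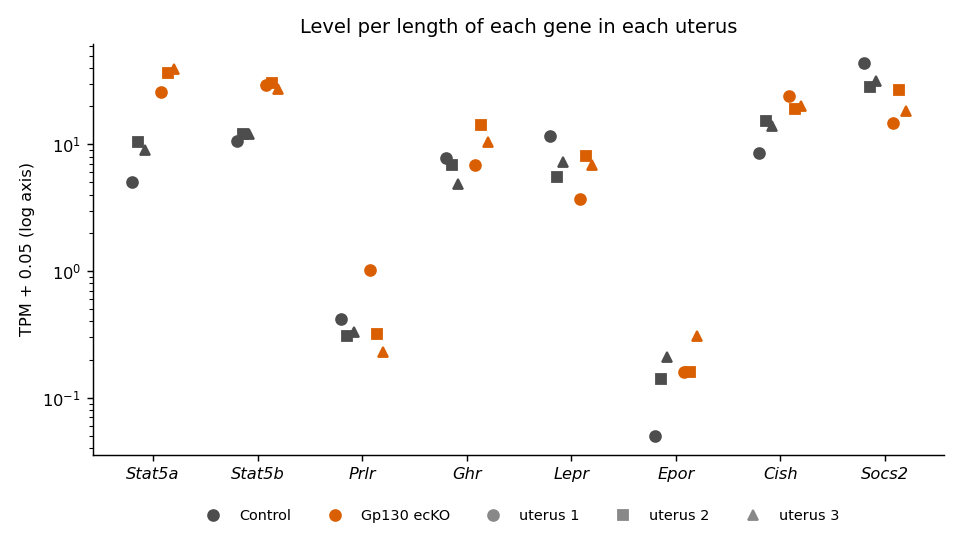
Deposited TPM of the 8 genes in each uterus on a log axis after adding 0.05, with controls in grey, *Gp130* ecKO in orange and the marker shape giving the uterus number. *Socs2* leads in controls at a mean of 34.8 TPM and *Stat5a* in *Gp130* ecKO at 33.8 TPM, while *Prlr* and *Epor* stay below 1 TPM throughout.

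The other genes of the pathway were taken from 6 lists with 75 genes, of which 49 were tested and 0 were called by edgeR's quasi-likelihood test. At an unadjusted p under 0.05 there were 19 of the 49, against 4151 of 16605 tested genes. Their median log2 fold change was −0.47, and in 21 the groups did not overlap, 7 higher and 14 lower, against 31.3 percent of all tested genes with 2607 higher and 2587 lower. The exact test called 7 of them and DESeq2 called 8, where they called 7.54 and 9.69 percent of all tested genes, with *Csf2rb*, *Il15*, *Jak3*, *Myc*, *Pim1* and *Socs3* lower and *Socs7* higher by both, and *Jak2* higher by DESeq2 alone. Without control 2 the quasi-likelihood test called 6 of them, and 5.23 percent of all genes it tested.

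Of 15 ligand genes 3 were tested. *Prl*, *Lep*, *Il3*, *Il5*, *Prl8a2* and *Prl3c1* were at 0 counts in all 6 uteri, the last 2 being prolactin family hormones of the decidua. *Gh* and *Epo* had at most 3 counts in any uterus. Of the 3 tested, *Il15*, a cytokine for uterine natural killer cells, was at 14.4, 8.52 and 19.9 CPM in controls and at 5.20, 5.92 and 6.26 CPM in *Gp130* ecKO, which gave a log2 fold change of −1.30 (SE 0.35, adjusted p = 0.101 by edgeR's quasi-likelihood test). *Il7* at −0.54 (SE 0.37) and *Thpo*, thrombopoietin, at −0.17 (SE 0.84) overlapped between groups.

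Of 12 other receptor genes 8 were tested, 1 higher and 7 lower, with a median of −0.58. *Csf2rb*, the shared beta chain for GM-CSF, interleukin 3 and interleukin 5, was at 18.9, 14.7 and 17.6 CPM in controls and at 2.76, 10.2 and 4.85 CPM in *Gp130* ecKO, which gave a log2 fold change of −1.52 (SE 0.46, adjusted p = 0.115 by edgeR's quasi-likelihood test). It was the 1 receptor of the 8 tested whose groups did not overlap, against 31.3 percent of all tested genes, of which 8781 of 16605 were lower. Its close copy *Csf2rb2* was at −1.33 (SE 0.51), *Il2rg*, the common gamma chain, at −1.21 (SE 0.44), and *Crlf2*, the TSLP receptor, at −0.51 (SE 0.26). How RSEM divided reads between *Csf2rb* and *Csf2rb2* was not tested.

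Of the 10 kinase and adaptor genes, all tested, 4 were higher and 2 lower without overlap (31.3 percent of all tested genes did not overlap), and the median was 0.04. *Jak2*, the kinase bound to the prolactin, growth hormone and erythropoietin receptors, was at 168, 455 and 190.2 CPM in controls and at 574, 641 and 546 CPM in *Gp130* ecKO. Control 2 stood well above the other controls, and the log2 fold change was 1.12 (SE 0.38, adjusted p = 0.141 by edgeR's quasi-likelihood test). *Jak3*, the kinase of the common gamma chain, was at 38.7, 29.3 and 26.7 CPM in controls and at 9.81, 14.8 and 11.3 CPM in *Gp130* ecKO, opposite in sign at −1.40 (SE 0.25, adjusted p = 0.0635 by the same test). *Grb2*, an adaptor to the Ras pathway, was at 0.55 (SE 0.22), and *Sh2b2*, a JAK2-binding adaptor, at −1.09 (SE 0.49), both without overlap.

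Of the 14 inhibitor genes, all tested, 2 were higher and 4 lower without overlap, against the same 31.3 percent, and the median was 0.06. *Socs3*, the SOCS gene best known downstream of GP130 and STAT3, was at 47.5, 29.5 and 67.2 CPM in controls and at 5.11, 10.8 and 6.92 CPM in *Gp130* ecKO. Its log2 fold change of −2.65 (SE 0.40, adjusted p = 0.0548 by edgeR's quasi-likelihood test) was the largest in size of the 49. *Socs7* was at 59.1, 83.0 and 54.2 CPM in controls and at 148, 142 and 124 CPM in *Gp130* ecKO, at 1.07 (SE 0.20, adjusted p = 0.0676 by the same test). *Sh2b3*, which restrains JAK2, was at −0.77 (SE 0.23), and the phosphatase gene *Ptpn2* at −0.69 (SE 0.24), both without overlap.

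Of 14 general STAT5 target genes 12 were tested, 2 higher and 10 lower, with a median of −0.62 and 7 without overlap, 1 higher and 6 lower. The higher one was *Bcl2l1*, a survival gene, at 0.61 (SE 0.27), named after its values were seen. Over all tested genes 7824 were higher and 8781 lower, and 31.3 percent did not overlap. *Pim1*, a survival kinase, was at 44.2, 17.6 and 37.8 CPM in controls and at 11.8, 9.61 and 8.995 CPM in *Gp130* ecKO, which gave a log2 fold change of −1.71 (SE 0.35, adjusted p = 0.0737 by edgeR's quasi-likelihood test). *Myc* was at 98.3, 109 and 148 CPM in controls and at 51.8, 71.3 and 31.8 CPM in *Gp130* ecKO, at −1.20 (SE 0.31, adjusted p = 0.0956 by the same test). *Bcl6*, a repressor, was at −0.66 (SE 0.25), and *Ccnd1*, cyclin D1, at −0.73 (SE 0.28), again without overlap. *Pim1*, *Myc*, *Bcl6* and *Ccnd1* are targets of STAT3 as well as of STAT5.

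Of 10 mammary STAT5 target genes, such as the caseins, 2 were tested. *Csn1s1*, *Csn1s2a* and *Wap* were at 0 in all 6 uteri. *Elf5*, a transcription factor of the mammary alveolus, was at −0.25 (SE 0.77) and *Xdh*, xanthine dehydrogenase, at −0.54 (SE 0.66), with wide overlap in both.

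**Figure D5:**
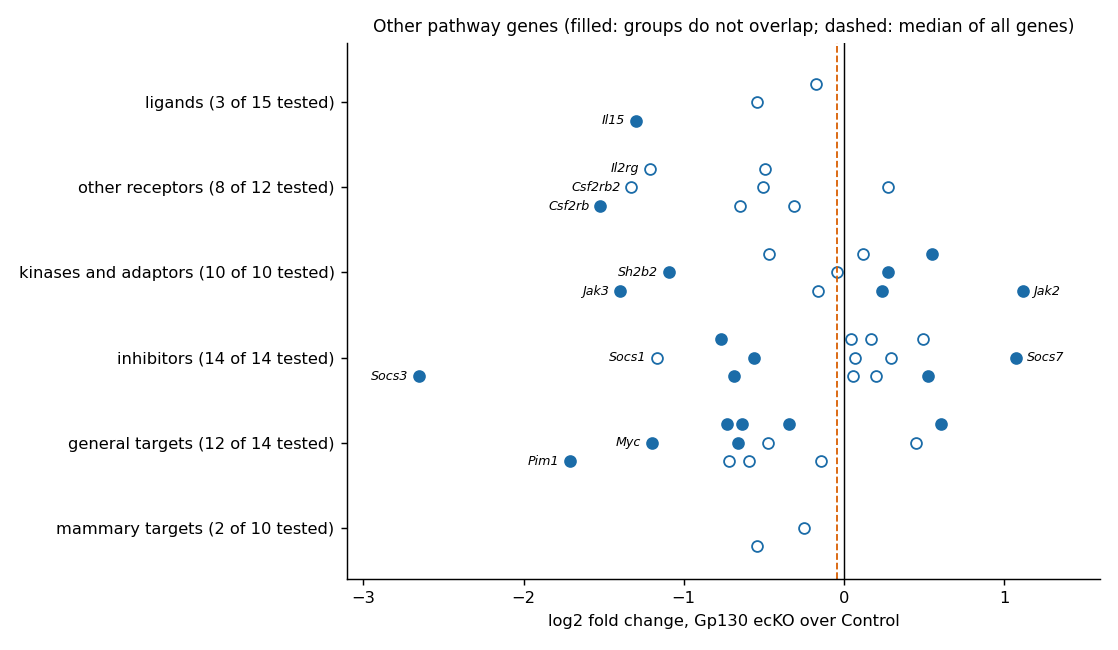
Log2 fold change of *Gp130* ecKO over control for the 49 tested genes of the 6 other pathway lists, filled where control and *Gp130* ecKO CPM were apart, with names for changes of 1 or more in size. The dashed line marks the median of all tested genes at −0.05, and the points run from −2.65 for *Socs3* to 1.12 for *Jak2*.

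Summed levels of epithelial and stromal marker genes did not overlap between the groups, although 0 markers of either list were called by edgeR's quasi-likelihood test (4 of 7 epithelial and 6 of 8 stromal markers had an unadjusted p under 0.05, as had 4151 of all 16605 tested genes). The counts without overlap that follow stand beside 31.3 percent of all tested genes. The summed level of 7 epithelial markers was 2783, 2876 and 1866 CPM in controls and 5761, 4139 and 4437 CPM in *Gp130* ecKO. The ratio of means was 1.91, and 4 of the 7 were higher without overlap. By staining, the study reported more KRT8 and CDH1 protein within the epithelium of *Gp130* ecKO. The sum may thus not measure the amount of epithelium alone. *Krt8*, a keratin of simple epithelium, was at 435, 649 and 347 CPM in controls and 1447, 1017 and 1101 CPM in *Gp130* ecKO, whereas *Epcam*, an epithelial adhesion gene, was at 649.5, 379 and 348 against 429, 363 and 414 CPM. In the fit the 4 keratin genes of the list were 1.67-fold (*Krt18*, with overlapping groups), 2.35-fold (*Krt7*), 2.49-fold (*Krt8*) and 4.57-fold (*Krt19*) higher and the cell junction genes *Cdh1* and *Cldn4* 1.58-fold and 1.59-fold (the latter with overlapping groups), beside 3.94-fold for *Stat5a* and 2.35-fold for *Stat5b*.

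The summed level of 8 stromal markers was 4174, 5042 and 4096 CPM in controls and 2195, 2829 and 2926 CPM in *Gp130* ecKO, with 6 of the 8 lower without overlap and 8 of 8 lower in sign. The sum of 6 endothelial markers ran from 377 to 951 CPM in controls and from 210.3 to 379.8 CPM in *Gp130* ecKO, with 4 of 6 lower without overlap. The sums of smooth muscle, macrophage and lymphocyte markers overlapped, at 488 to 2029, 197 to 262 and 24.2 to 56.3 CPM in controls against 367 to 2294, 156 to 249.5 and 11.1 to 41.3 CPM in *Gp130* ecKO. *Socs2*, *Socs3*, *Jak3* and *Pim1* were lower in every *Gp130* ecKO uterus than in any control. The same held for the stromal sum and for 2587 of all 16605 tested genes, so it does not single out these 4 genes. Fewer cells of a type and less RNA per cell cannot be told apart in whole uteri, and the part of composition in the values of the 8 genes was not tested.

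Markers of tissues beside the uterus were also summed. The sum of 6 adipocyte markers was 0.0405, 6.63 and 6.20 CPM in controls and 0.0904, 1.31 and 0 CPM in *Gp130* ecKO, with *Lep* at 0 in every uterus, and its part in the receptor values was not tested. Of the 5 ovary and oviduct markers, *Cyp19a1* and *Fshr* were at 0 and the sum was mostly *Ovgp1*, oviductal glycoprotein, which rose from between 47.9 and 85.3 CPM to between 552 and 1193 CPM (log2 fold change 3.68, adjusted p = 0.0377 by edgeR's quasi-likelihood test). Whether the *Ovgp1* RNA came from the uterus itself or from tissue beside it was not tested. The remaining markers, *Lhcgr* and *Inha*, did not pass the filter on low counts. Their means were 0.280 and 0.878 CPM in controls and lower in *Gp130* ecKO, at 0.058 and 0.1555 CPM, with overlapping groups. The erythroid sum ran from 179 to 338 CPM in controls and from 47.8 to 323 CPM in *Gp130* ecKO while *Epor* stayed at 6 counts or fewer.

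By their pattern over the 6 uteri, the genes most like *Stat5a* in log2(CPM + 0.5) were *Cdh4* (Pearson r = 0.995), *Greb1l* (r = 0.993) and *Klhdc10* (r = 0.992), out of 14762 genes with a mean of at least 1 CPM. Those most like *Socs2* were *Reep1* (r = 0.998), *Cpne2* (r = 0.995) and *Gimap6* (r = 0.995). The 6 points of each share the contrast between the groups, and an r over 0.95 was reached by 126 genes with *Stat5a* and by 169 genes with *Socs2*, so the likeness is given as a description.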

How the data were processed

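Poly(A) RNA of 6 uteri, 3 for each genotype, was made into libraries that keep strand and read from 1 end over 75 bases. The authors trimmed reads with fastp 0.23.2, removed ribosomal RNA reads, mapped the rest to GRCm39 with STAR 2.7.10a and estimated expression with RSEM 1.3.3, whose versions come from the submitters' processing notes. The annotation version and strand setting are not given in the sources used here. The deposited expected counts per gene were not normalized, whereas the deposited TPM and FPKM had been scaled for length and depth by the authors. TPM served for levels between genes and FPKM was not used. The deposited gene and effective lengths are RSEM's, in bases.

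Expected counts were rounded and tested in R 4.3.3 with edgeR 4.0.16 (filterByExpr, TMM, quasi-likelihood F test without the legacy setting) over 16605 genes. Calls needed a Benjamini-Hochberg adjusted p under 0.05 and more than 2-fold change. The SE is the log2 fold change over the square root of F. Alternatives were other tests (the exact test, DESeq2 1.42.0 and the legacy form), scalings and filters, unrounded or summed counts, a replicate block and each uterus left out. GENCODE M39 gave symbols for 56017 of 56748 identifiers. The members and gene lists were chosen with earlier results of these data known. Named genes were the members, *Il6st*, in each pathway list the called genes and then those of smallest p, up to 4 a list, and the 3 genes most like *Socs2* (highest TPM) and *Stat5a* (largest change). *Stat3*, *Cavin1*, *Atp6v0a1*, *Leprot* and the marker genes with values were added after their values were seen. If the uteri of a group were not separate animals, p-values would not measure the spread between animals. Libraries of the same group differed beyond counting error, with a chi-square per gene of 89.6 to 130.8 between the counts of 2 libraries.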

Additional observations from a re-analysis of the deposited data

How the results depend on the processing

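The direction of *Stat5a*, *Stat5b*, *Ghr*, *Cish* and *Socs2* was the same under every alternative run for them. *Stat5a* ranged from 1.76 to 2.26 on the log2 scale in its own counts (1.53 for the summed counts of both *Stat5* genes), with an adjusted p between 2.5e-06 and 0.142. *Stat5b* ranged from 1.17 to 1.304 in its own counts, with an adjusted p between 4e-12 and 0.137, and its call was lost in 7 of 16 alternatives. *Socs2* ranged from −1.11 to −0.66, *Ghr* from 0.37 to 0.75 and *Cish* from 0.15 to 0.52. The log2 fold change of *Prlr* ranged from −0.44, without *Gp130* ecKO 1, to 0.86, without *Gp130* ecKO 3, and that of *Lepr* turned to 0.76 with the counts of *Leprot* added, a gene of higher count. The cause of the first was not tested.

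Of the members, 0 were called with edgeR's legacy quasi-likelihood form, 2 with its exact test, 2 with DESeq2 and 2 with no filter on low counts. Of the other pathway genes, 7 were called with the exact test, 8 with DESeq2 and 1 with no filter. Of all genes, 26 were called in the reported analysis, 7 with the legacy form, 1252 with the exact test, 1542 with DESeq2 and 105 with no filter. With 1 uterus left out, the members called ranged from 0 to 2, the pathway genes from 0 to 6 and all genes from 1 to 897. The highest of each came without control 2, and without any other uterus 0 members were called. Upper-quartile scaling moved the median of all genes from −0.05 to −0.11 and changed no call of a member.

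Deviations from the group mean had correlations of 0.104, 0.071 and −0.20 between uteri of the same number, against −0.316 to 0.225 for other pairs. With 3 uteri in each group, these values cannot decide whether the numbers pair the uteri. With the replicate block, 0 members and 6 genes in all were called, 4 of the latter shared with the 26. Depth limits the weakest members, since *Epor* had at most 6 counts in any uterus.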
